A study of Rattus norvegicus with 12 samples.

Results

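The genes examined were 10 named genes of lipoprotein assembly: Apoa1, Apoa2, Apoa4, Apoa5, Apob, Apoc3 and Apoe, which encode apolipoproteins, and Mttp, Lcat and Lipc, which encode a lipid transfer protein, a cholesterol-esterifying enzyme and a lipase. Members were the rows of the deposited table whose gene name equals one of these names, and the row with the highest mean over all livers stood for its gene. Rows were found for 8 of the 10 genes, 11 rows among the 34391 transcripts of the table, and Apoa1 and Apoc3 are not analysed here. Liver RNA was compared between 6 female rats of the inbred alcohol-preferring strain iP10a with free-choice access to ethanol for 23 weeks (EtOH animals) and 6 female iP10a rats without ethanol (controls). The EtOH animals chose among bottles of 10, 20 and 30% ethanol, with food and tap water always available to both groups. All animals were 38 weeks old at collection except EtOH animal 6, which was 39 weeks old. Because this strain was bred for its preference for alcohol, the controls share that background, and the intake was set by each animal. One library was made from the poly(A) RNA of each liver and read from both ends for 101 nucleotides.

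Hepatocytes export triglyceride and cholesterol in very low density lipoprotein (VLDL). Each VLDL particle is built on 1 molecule of apolipoprotein B, onto which the microsomal triglyceride transfer protein loads lipid in the endoplasmic reticulum. Smaller apolipoproteins then join the surface and govern lipolysis and uptake of the particle, and high density lipoprotein (HDL) is remodelled in plasma by lecithin-cholesterol acyltransferase and hepatic lipase. Ethanol is known to disturb hepatic lipid export, and the comparison asks whether the transcripts of this machinery differ after free-choice drinking.

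The stretches shown are the 250 bases upstream of the annotated start of Lipc and of an annotated start of Apoa5. Lipc is the member that passed the test of group difference, and 2 known motifs were found in the Apoa5 stretch. The stretches are of the rat RefSeq annotation on GRCr8, which gave 8 windows for 5 of the 8 members: Lipc, Apoa5, Apoa4, Apoe and Lcat. The Lipc stretch is chr8:80516286-80516535 (minus strand) and the Apoa5 stretch chr8:55457621-55457870 (plus strand). Capitals mark the motif matches.
Lipc: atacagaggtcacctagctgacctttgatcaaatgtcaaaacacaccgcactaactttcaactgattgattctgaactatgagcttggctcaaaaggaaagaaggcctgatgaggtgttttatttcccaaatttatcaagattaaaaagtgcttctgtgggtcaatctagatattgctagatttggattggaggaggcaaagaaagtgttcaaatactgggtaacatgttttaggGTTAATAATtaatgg
Apoa5: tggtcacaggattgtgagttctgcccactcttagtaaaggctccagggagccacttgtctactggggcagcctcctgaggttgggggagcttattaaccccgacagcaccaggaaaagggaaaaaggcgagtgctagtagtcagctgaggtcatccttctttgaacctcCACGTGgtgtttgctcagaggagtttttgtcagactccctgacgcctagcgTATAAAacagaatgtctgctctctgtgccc
The capitals in Lipc, which begin 15 bases before the start, match GTTAATNAT, the core of the recognition sequence of HNF1, a hepatocyte transcription factor, and 0.666% of the 33469 promoter windows in the table held a match. The capitals in Apoa5 match CACGTG, the E-box bound by USF1, from base 81 before the start, which 5.59% of windows held, and TATAAA, the TATA box, from base 30, which 12.9% held. Apoa5 has a further annotated start downstream, and the same matches begin 235 and 184 bases before it. The site CAAAGTCCA, bound by HNF4, matched none of the members' windows and 0.338% of all windows, and the windows of Apoa4, Apoe and Lcat held none of the 4 motifs. Both strands were searched, and no matches overlapped. The motifs were chosen after the sequences had been viewed, and a match is a description of the letters.

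Levels are given in RPKM, reads scaled to the length of the transcript and to the mapped reads of the library, which are per length and can be compared between genes, and as a share of the summed RPKM of a liver. Between 2610238 and 4318141 whole reads per liver were recovered for the controls and between 3945593 and 6030028 for the EtOH animals. The 7 hepatocyte markers summed to 87189 to 115704 RPKM in controls and 96403 to 122478 in EtOH animals, whereas 4 enterocyte markers summed to no more than 6.92 in any liver, with Lct listed at 0 in all. One of the hepatocyte markers, Cps1, was called higher in EtOH animals (limma, adjusted p = 0.0224), and 2 were called higher with median scaling or as a share of all RPKM. All 8 measured Kupffer cell markers had a positive log2 difference under each of 4 scalings, and 3 were called higher in EtOH animals (2 as a share of all RPKM and 1 without normalization), with sums of 168 to 258 RPKM in controls and 223 to 276 in EtOH animals. Of 6 stellate cell markers 1 was called higher (0 as a share of all RPKM), with sums of 23.5 to 31.8 and 29.1 to 48.5 RPKM. All 6 had positive log2 differences under the 4 scalings. The 3 endothelial cell markers measured had positive log2 differences under the 4 scalings, and none was called. Of the 3 bile duct cell markers measured, 1 had a positive log2 difference under each scaling, and none was called. The part of these cells in the results was not tested. Where RNA of a whole tissue is measured, fewer cells of a type and less RNA per cell cannot be told apart.

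Control animal 3 stood apart from the other controls by transcript length. Among transcripts with a mean of at least 10 RPKM, the 232 with a counted length (the bases over which reads were counted) over 4000 and up to 8000 deviated by a median of -0.25 log2 units from the rest of the controls in this liver, and the 13 longer ones by -0.45. In every other liver these medians lay between -0.10 and 0.15. Group differences also moved with length, from a median of -0.07 log2 units between 500 and 1000 bases to 0.16 between 4000 and 8000 bases and 0.21 for the 13 longer transcripts. Without control animal 3 the last median was 0.16. Results that rest on this liver are given with and without it.

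**Figure D1:**
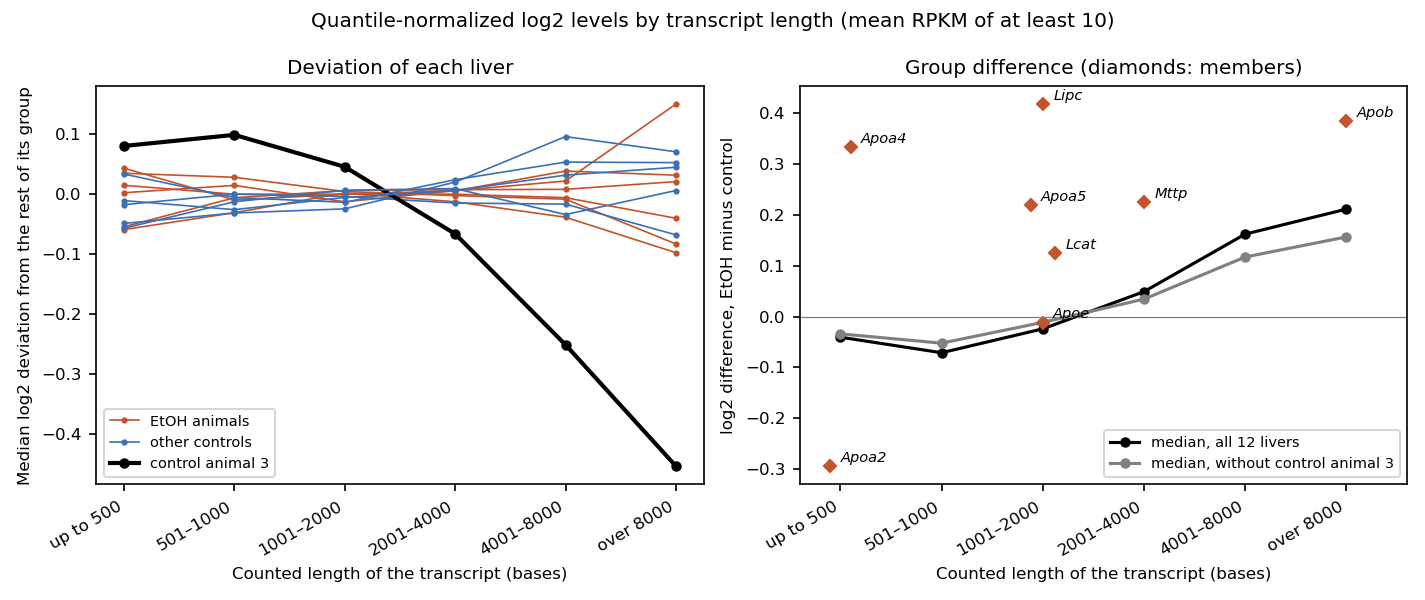
Left, median log2 deviation of each liver from the rest of its group (vertical axis) in 6 classes of counted transcript length (horizontal axis), with control animal 3 in black, other controls in blue and EtOH animals in orange. Right, median log2 difference of EtOH minus control in the same classes with (black) and without (grey) control animal 3, and the 8 members as diamonds. Control animal 3 falls to -0.45 for transcripts over 8000 bases, and the group medians climb to 0.21.

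The members covered a 203-fold range of mean RPKM, from Apoe down to Apoa4, whose row holds only 297 bases. Apoe, the ligand by which remnant particles are taken up through the LDL receptor family, was the fifth most abundant of all listed transcripts and made up 77.6% of the summed RPKM of the 8 members. From the highest mean level to the lowest followed Apoa2, Apob, Apoa5, Lcat, Lipc, Mttp and Apoa4. Neighbours in this order did not overlap within a group, except Apob and Apoa5 in the controls. The order is of steady-state mRNA per length and says nothing of protein output.

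Between groups, 1 of the 8 members was called at an adjusted p below 0.05 in limma with Benjamini-Hochberg adjustment over all 21718 transcripts tested, against 2.42% of all transcripts and 12.1% of the 1041 with a mean of at least 50 RPKM. Among all calls, 53.4% were lower in EtOH animals, a share that became 63.5% with median scaling, 75.4% with livers scaled to the same summed RPKM and 83.7% without normalization between livers. Without normalization, the median log2 difference of transcripts with at least 10 RPKM was -0.14, so the differences below are relative to a quantile-normalized liver. Unadjusted p was below 0.05 for 5 of the 8 members, against 15.5% of all transcripts and 39.4% of those with at least 50 RPKM. The log2 difference was positive for 6 members and negative for Apoa2 and Apoe. The median difference of the members was 0.22, against 0.00 for all tested transcripts.

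**Figure D2:**
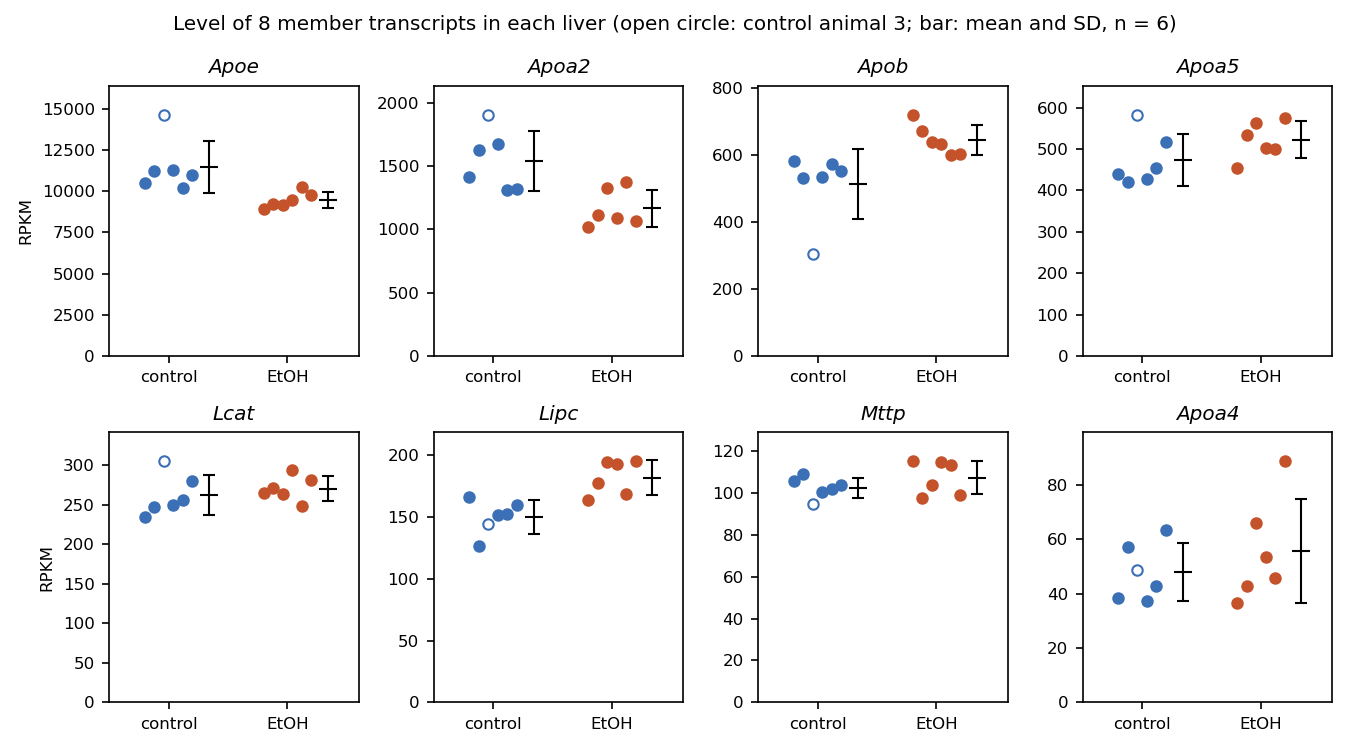
RPKM of each of the 8 members (vertical axis, from 0) in the 6 controls (blue) and 6 EtOH animals (orange). Circles are livers, the open circle is control animal 3, and bars give the mean and SD (n = 6). Apob is the member whose groups do not overlap, and control animal 3 is its lowest liver at 306 RPKM.

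Lipc, hepatic lipase, which hydrolyses triglyceride and phospholipid of remnants and HDL, was the called member. The row spans chr8:75323443-75450353 as the authors list it, with a counted length of 1717 bases. Control livers ranged from 127 to 166 RPKM with a median of 152, and EtOH livers from 163 to 195 with a median of 185. Of the EtOH livers, 5 lay above the highest control. Mean levels were 150 ± 13.7 RPKM in controls and 182 ± 14.1 in EtOH animals (SD, n = 6), and the log2 difference was 0.42 ± 0.09 (SE, limma, adjusted p = 0.0299). As a share of all RPKM, the transcript took 0.0231 to 0.0310% in controls and 0.0316 to 0.0366% in EtOH animals. Depth was 830 to 1300 reads per control liver and 1324 to 2234 per EtOH liver.

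The call on Lipc ended in 8 of the 12 fits that left out 1 liver. The adjusted p was 0.0549 without control animal 2, 0.0509 without control animal 3, 0.0541 without control animal 4 and 0.0546 without control animal 5. It was 0.0715 without EtOH animal 2, 0.0677 without EtOH animal 3, 0.0642 without EtOH animal 4 and 0.0567 without EtOH animal 6. The log2 difference in the 12 fits stayed between 0.37 and 0.47. It was 0.28 without normalization between livers, with an adjusted p of 0.0524. The call also ended without the mean-variance trend (adjusted p = 0.0525) and in the pooled test on square-root values (adjusted p = 0.0522). The 2001 transcripts within 1.5 times the length of Lipc had a median difference of 0.00. Of the other 2 rows named Lipc, 1 was at 0 RPKM in all 12 livers. The other was above 0 only in EtOH animal 5, at 6.08 RPKM, and no comparison can be made from these rows.

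Apob, the structural protein of VLDL, was the member whose RPKM did not overlap between groups, which held for 3.1% of all tested transcripts and, with EtOH higher, for 0.677%. These rates were not taken among transcripts with a mean of at least 50 RPKM, of which a larger share was called. The main row spans chr6:31508012-31547648 as listed and is by far the longest member, with a counted length of 13561 bases. Control livers ranged from 306 to 582 RPKM with a median of 544, and EtOH livers from 599 to 720 with a median of 636. The lowest value was that of control animal 3, and the next control was at 530. Means were 513 ± 104 RPKM in controls and 644 ± 45.7 in EtOH animals (SD, n = 6). The log2 difference of 0.38 ± 0.18 (SE) was not called (limma, adjusted p = 0.320). Without control animal 3 the control mean was 555 ± 22.5 RPKM (SD, n = 5), and the log2 difference was 0.22 ± 0.09 (SE, limma, adjusted p = 0.318). Leaving out the lowest control cannot make the groups overlap, so this fit does not test their separation. Among the 13 transcripts over 8000 bases, Apob had the highest difference with all livers and the fourth highest without control animal 3. Their median was 0.21 and 0.16 in these fits, so the difference of Apob stands beside a shift of other long transcripts, whose part in it was not tested. The second row of the gene, 14273 bases long, was listed at 1.59 to 6.81 RPKM in controls and 1.32 to 3.36 in EtOH animals and was not called (limma, adjusted p = 0.649).

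Mttp encodes the large subunit of the microsomal triglyceride transfer protein, the partner of Apob in the first step of assembly. The row spans chr2:235613710-235654848 as listed, with 3997 counted bases. Control livers ranged from 94.8 to 109 RPKM with a median of 103, and EtOH livers from 97.6 to 115 with a median of 108. The groups overlapped, and 3 EtOH livers lay above the highest control. Control animal 3 was again the lowest control. The log2 difference was 0.22 ± 0.07 (SE) after quantile normalization and 0.06 ± 0.06 without it, and neither was called (limma, adjusted p = 0.122 and 0.639). Without control animal 3 the quantile-normalized difference was 0.17 ± 0.05 (SE, limma, adjusted p = 0.161). With all livers, the 758 transcripts within 1.5 times the length of Mttp had a median quantile-normalized difference of 0.08.

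Within a liver, the ratio of Mttp to Apob was lower in EtOH animals, a comparison that does not depend on the scaling of the liver. The ratio ranged from 0.178 to 0.310 in controls, with a median of 0.187, and from 0.145 to 0.189 in EtOH animals, with a median of 0.163. The log2 difference was -0.29 (2-sided exact permutation test over 924 regroupings, p = 0.0238), the one ratio tested of the 3 planned. Control animal 3 had the highest ratio, and without it the difference was -0.17 (exact permutation test, p = 0.0368). The exact p was 0.0563 without EtOH animal 1, 0.0649 without EtOH animal 2, 0.0563 without EtOH animal 3 and 0.0563 without EtOH animal 6. The counted lengths of the 2 transcripts differ, and the part of the shift with length in this ratio was not tested.

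Apoe was listed at chr1:79003635-79006413, with 1113 counted bases. Control livers ranged from 10230 to 14640 RPKM with a median of 11131, and EtOH livers from 8899 to 10240 with a median of 9357. Of the EtOH livers, 5 lay below the lowest control, and control animal 3 was the highest. Means were 11486 ± 1600 RPKM in controls and 9469 ± 482 in EtOH animals (SD, n = 6), a ratio of 0.824, which was 0.872 without control animal 3. The share of all RPKM was 1.86 to 2.53% in controls and 1.72 to 1.92% in EtOH animals. The log2 difference depended on the scaling, at -0.01 after quantile normalization, -0.18 with median scaling, -0.21 as a share and -0.27 without normalization, and none was called (limma, adjusted p = 0.952, 0.531, 0.366 and 0.293). Quantile normalization sets a value by its rank, and Apoe held rank 4 to 6 among the controls and rank 5 in all EtOH livers, so the quantile-normalized values hold the rank of this transcript and not its level.

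**Figure D3:**
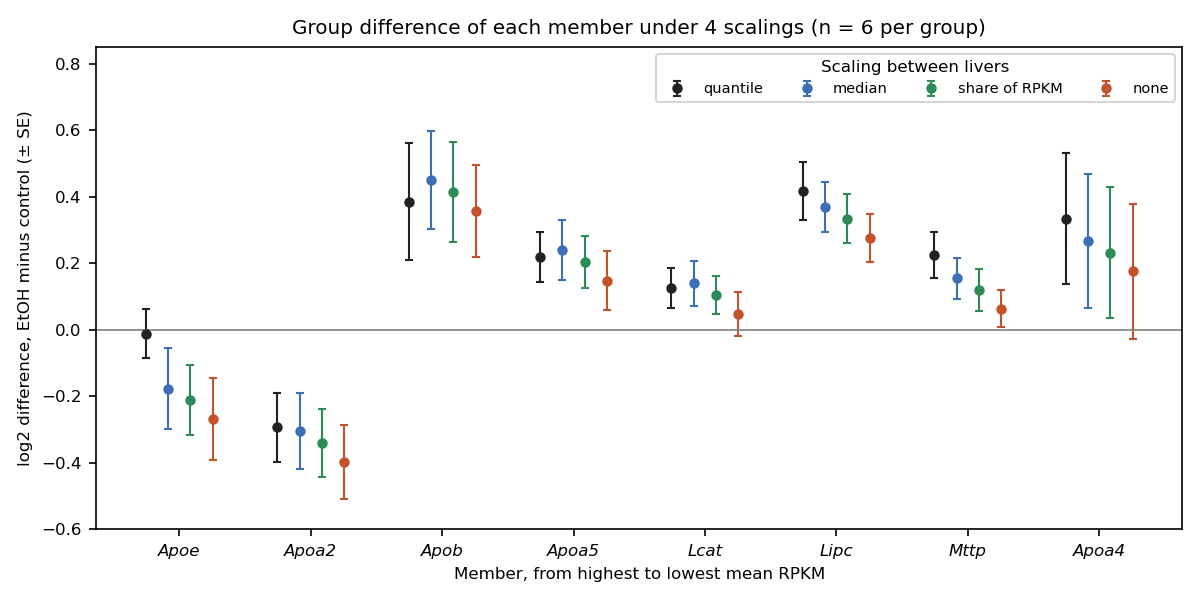
Log2 difference of EtOH minus control with its SE (vertical axis) for each member, from the highest to the lowest mean RPKM (horizontal axis), after quantile normalization (black), median scaling (blue), as a share of all RPKM (green) and without scaling (orange). Each member keeps its sign under the 4 scalings, and Apoe moves most, from -0.01 to -0.27.

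The 8 members summed to 2.39 to 3.12% of all RPKM in controls and 2.26 to 2.50% in EtOH animals. Without Apoe the sums were 0.561 ± 0.0230% and 0.557 ± 0.0209% (SD, n = 6), and differed by less than the spread between livers. For comparison, the share of albumin (Alb), the major secreted protein of hepatocytes, was 12.8 ± 1.81% in controls and 15.0 ± 1.70% in EtOH animals. The share of any transcript depends on those of the few most abundant ones.

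**Figure D4:**
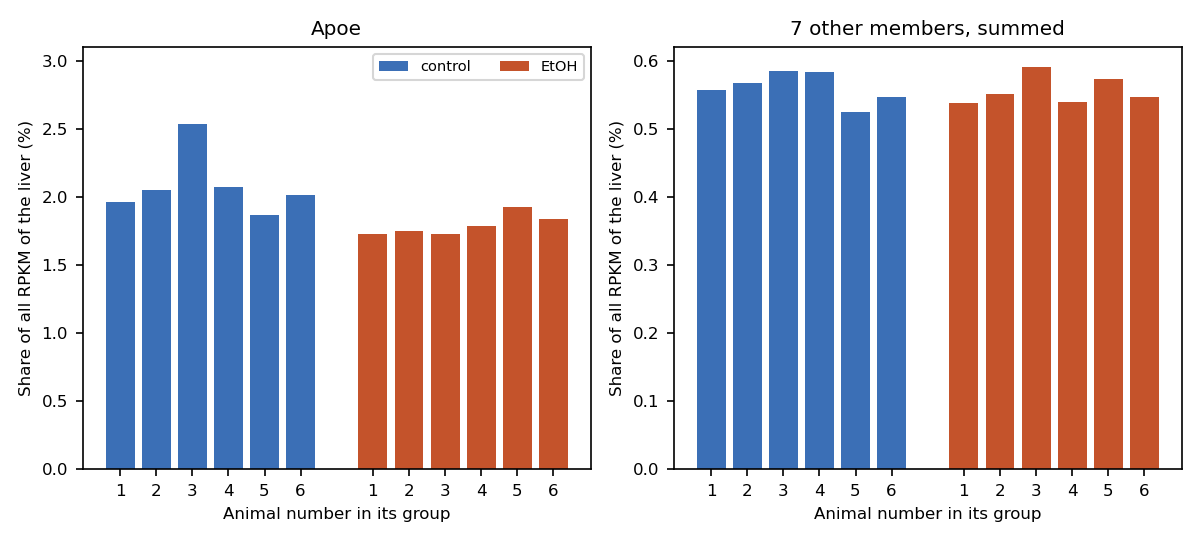
Share of the summed RPKM of each liver (vertical axis, %) taken by Apoe (left) and by the 7 other members together (right), with 1 bar per animal (horizontal axis, number in its group), controls in blue and EtOH animals in orange. Control animal 3 has the highest Apoe share at 2.53%, and the summed share of the other members is about level.

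Apoe lies in a gene cluster with Apoc4, Apoc2 and Apoc1, which encode small apolipoproteins that activate or restrain lipolysis and uptake. These 3 genes are named for their position. Apoc1 was at 3786 ± 181 RPKM in controls and 3751 ± 401 in EtOH animals, Apoc2 at 648 ± 60.2 and 719 ± 73.2, and Apoc4 at 381 ± 34.8 and 341 ± 25.9 (SD, n = 6). None was called (limma, adjusted p = 0.650, 0.370 and 0.765). Their log2 differences were -0.08, 0.16 and -0.04, so the values of the cluster did not all point one way.

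Apoa2, the second major protein of HDL, was listed at chr13:87114734-87116372 with 413 counted bases. Control livers ranged from 1308 to 1904 RPKM with a median of 1521, and EtOH livers from 1022 to 1377 with a median of 1102. The groups overlapped, but 4 EtOH livers lay below the lowest control. The mean was 1541 ± 236 RPKM in controls and 1166 ± 147 in EtOH animals (SD, n = 6), a ratio of 0.757, and this was the lowest ratio among the members. The log2 difference of -0.29 ± 0.10 (SE) was not called (limma, adjusted p = 0.172), nor was it without control animal 3, at -0.24 ± 0.10 (adjusted p = 0.282). The 254 transcripts within 1.5 times its length had a median difference of -0.06.

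Lcat, which esterifies the cholesterol of HDL, was listed at chr19:35781503-35784980. Control livers ranged from 234 to 305 RPKM with a median of 253, and EtOH livers from 249 to 294 with a median of 268. The control range enclosed the EtOH range, with control animal 3 as the highest liver. Without control animal 3 the highest control was at 280 RPKM, below the highest EtOH liver. The log2 difference was 0.12 ± 0.06 (SE, limma, adjusted p = 0.350), and 0.15 ± 0.06 without control animal 3 (adjusted p = 0.320).

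Apoa5 and Apoa4 lie side by side on chromosome 8. Apoa5, which promotes the hydrolysis of triglyceride-rich particles, was listed at chr8:49253538-49255591. Its control livers ranged from 421 to 582 RPKM with a median of 447, and its EtOH livers from 455 to 576 with a median of 519. The highest value was that of control animal 3, and no EtOH liver lay above it. The log2 difference was 0.22 ± 0.07 (SE, limma, adjusted p = 0.160), and 0.26 ± 0.07 without control animal 3 (adjusted p = 0.104). Apoa4, an apolipoprotein made mainly by the intestine and at variable levels by rodent liver, has a row of only 297 bases, chr8:49233140-49233436, on which 33 to 131 reads fell per liver. Its control livers ranged from 37.1 to 63.3 RPKM with a median of 45.7, and its EtOH livers from 36.4 to 88.5 with a median of 49.5. The groups overlapped on both sides, and the log2 difference was 0.33 ± 0.20 (SE, limma, adjusted p = 0.467).

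The levels of Apoa4 and Apoa5 across the 12 livers, with group means removed, had a Pearson r of 0.58 (permutation p = 0.0483) and a Spearman rho of 0.67 (permutation p = 0.0202) on log2 RPKM. It was the only pair of the 6 planned that was computed. With the 2 livers farthest from the median left out r was 0.44, and after quantile normalization r was 0.47 (permutation p = 0.126), so the relation does not hold in each form. Over the 28 pairs of members, the same measure after quantile normalization ran from -0.56 for Apoa5 with Mttp to 0.81 for Apob with Mttp, given as a description. Without control animal 3 these 2 values were -0.33 and 0.52. The range then ran from -0.58 for Apoa4 with Apob to 0.72 for Apoa5 with Lipc.

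For each member, the most similar of 3816 other transcripts with at least 10 RPKM were sought over the 12 livers, with group means removed. Quantile-normalized log2 values were used. Apob was like Mapk6 (r = 0.96), and without control animal 3 this value was 0.79. Apoa5 was most like Nucb1 (r = 0.95) and Yipf3 (r = 0.92). Mttp was most like LOC100365047 (r = 0.92), Lcat like Chka (r = 0.89) and Agmat (r = 0.83), and Lipc like Ociad1 (r = 0.88) and C6 (r = 0.87). Apoa2 was most like Ugt1a7c and ADH1_RAT (both r = 0.87), Apoa4 like Nfs1 (r = 0.86) and Gne (r = 0.85), and Apoe like Lrp10 (r = 0.85) and Ilvbl (r = 0.84). The values for Apoe rest on its rank and not its level. Its normalized value departed from the median of the rest of its group only in control animals 3, 5 and 6. No member was among the most similar transcripts of another. These values were picked as the highest of many and are descriptions only.

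Of 75 related genes tested in 5 lists, 2 were called higher and 2 lower in EtOH animals, and their median log2 difference was 0.02. None of 13 other apolipoproteins was called. The smallest p there was that of Apon, an apolipoprotein of rodents, at 61.5 to 78.4 RPKM in controls and 48.2 to 56.6 in EtOH animals. Its groups did not overlap. Its log2 difference was -0.15 ± 0.04 (SE, limma, adjusted p = 0.0551) after quantile normalization and -0.27 as a share of all RPKM (adjusted p = 0.0245).

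Of 15 genes of VLDL assembly and export, 1 fell and none rose. This was Ces1d, a carboxylesterase that mobilises stored triglyceride for secretion, at 161 to 246 RPKM in controls and 93.8 to 163 in EtOH animals. Its log2 difference was -0.63 ± 0.12 (SE, limma, adjusted p = 0.0224), and the adjusted p was 0.0506 without EtOH animal 2. The gene has close relatives among which reads could be split, so its level is uncertain. Sec23b, for a coat protein of the vesicles that leave the endoplasmic reticulum, is named after its values were seen, because it was the second lower call of this list under the 3 other scalings. Its levels were 15.7 to 23.5 RPKM in controls and 11.9 to 16.4 in EtOH animals. Its log2 difference was -0.37 ± 0.10 (SE, limma, adjusted p = 0.0833) after quantile normalization, and the adjusted p was 0.0453 with median scaling, 0.0473 as a share of all RPKM and 0.0191 without normalization. The median of the whole list was -0.04.

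None of 14 genes of HDL formation and plasma lipases was called, with a median of 0.05. Of 12 genes of lipoprotein receptors and uptake, 1 fell. The median of this list was -0.01.

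Of 21 transcription regulators, 2 rose. Rxra, the partner of several lipid-sensing nuclear receptors, was at 78.7 to 86.8 RPKM in controls and 82.8 to 93.2 in EtOH animals (log2 difference 0.24 ± 0.05, SE, limma, adjusted p = 0.0230). As a share of all RPKM the difference was 0.16 (adjusted p = 0.0747), without normalization it was 0.10 (adjusted p = 0.242), the adjusted p was 0.0617 without the mean-variance trend, and the adjusted p was 0.0512 without control animal 2, 0.0593 without EtOH animal 2, 0.0525 without EtOH animal 3 and 0.0513 without EtOH animal 4. Nr1d1, a circadian repressor that acts on lipid genes, was at 4.04 to 23.3 RPKM in controls and 20.5 to 49.6 in EtOH animals (log2 difference 1.51 ± 0.33, SE, limma, adjusted p = 0.0358). Its call ended when control animal 3, 4 or 5, or any EtOH animal but the first, was left out, with adjusted p from 0.0557 to 0.0756. It also ended in the pooled test on square-root values (adjusted p = 0.0606).

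**Figure D5:**
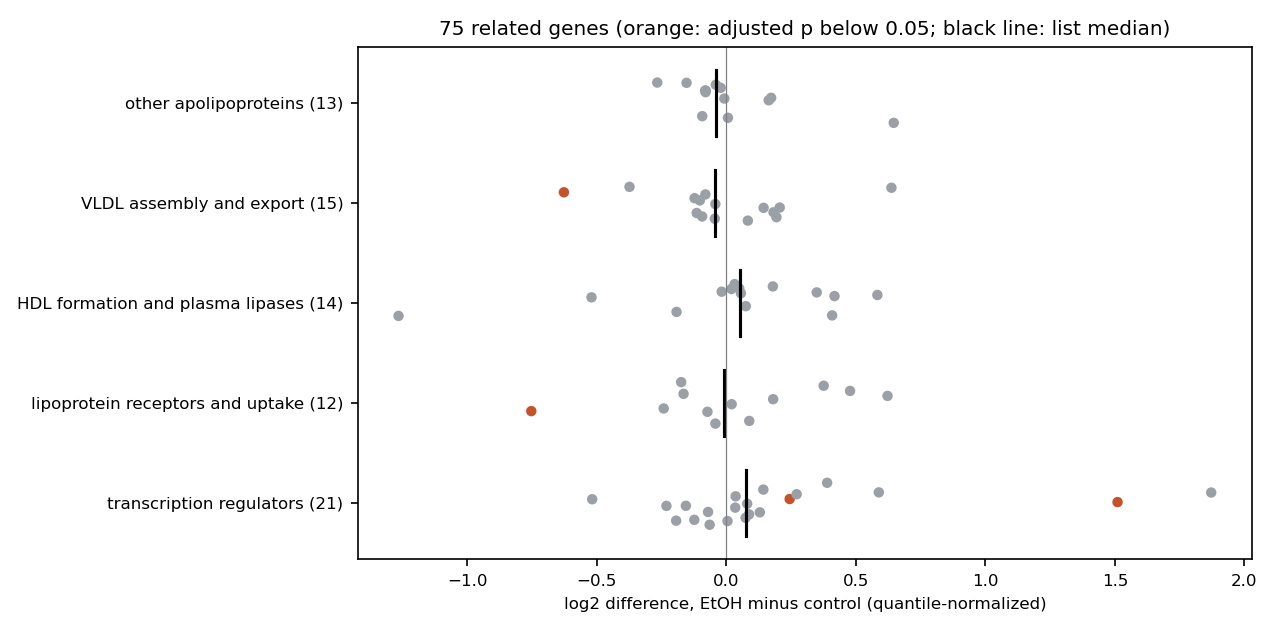
Log2 difference of EtOH minus control after quantile normalization (horizontal axis) for the 75 related genes in 5 lists (vertical axis, number of genes tested in brackets). Points are genes, orange where the adjusted p is below 0.05, and black lines are list medians, which lie between -0.04 and 0.07.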

How the data were processed

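Using CLCbio Genomics Workbench, the authors aligned the reads, computed RPKM and deposited these values for each of the 12 livers. The sources used here give no genome build, hence the authors' own positions are printed, and only promoter sequences are on GRCr8. The authors' columns of their own comparison (a fold change, its statistic, p values and FDR) were not used. Whole reads and counted lengths were recovered from the steps between RPKM values: all 21718 transcripts above 0 gave whole reads within 0.01 reads, except 1, within 0.05. A row above 0 in a single liver fits by construction, so its read count is not known. Counts that share a common divisor would come out too low.

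Log2 of RPKM plus 0.5 was quantile normalized, and the 6 EtOH livers were set against the 6 control livers in limma 3.58.1 in R 4.3.3, with a mean-variance trend and Benjamini-Hochberg adjustment over the 21718 transcripts, at a threshold of 0.05. The test was limma's rather than the pooled test of the study's methods, which was an alternative. All other steps ran in Python 3.11.15 with scipy 1.17.1, pandas 2.3.3 and numpy 2.4.6. Correlations used 100000 permutations. The procedure was tested on simulated data.

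Members and lists were chosen with earlier results of these data known. All members are named, and in each related list every called gene and that with the smallest p, and for each member the 2 most similar transcripts. Of the genes this rule takes, 4 are not reported here by name; they remain in every count. Alternatives were pseudocounts of 0.1 and 1, other scalings, square-root values, a minimum mean RPKM of 1, a block for the animal number, no trend, voom on recovered reads and each liver left out. Read counts cover counting error only. The labels name 6 biological replicates per group, and the libraries were sequenced in 1 lane.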

Additional observations from a re-analysis of the deposited data

Results flagged for a closer look

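Each member and the ratio of Mttp to Apob were examined in the controls and in the EtOH animals. So was each related gene that was called or had the smallest p of its list. This gave 30 groups of 6 livers. In 4 of them a liver had a gap to the next of over 0.625 of the range of its group. Chance flags about 1 in 20 groups. All 4 were control animal 3. It had the lowest Apob level of the controls at 306 RPKM, with a gap of 0.814 of the range. It had the highest Apoe level at 14640 RPKM, with a gap of 0.764. Its ratio of Mttp to Apob was the highest at 0.310, with a gap of 0.795. Its Apon level was the highest at 78.4 RPKM, with a gap of 0.649. These items share the liver, and the ratio shares Apob.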

How the results depend on the processing

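The transcripts called numbered 526, against 322 with the pooled test on square-root values, 860 with a minimum mean of 1 RPKM, which tests fewer transcripts, and 113 with the animal number as a replicate block. Leaving out 1 liver gave 212 to 656 calls. The member called, Lipc, was lost (0 members called) without normalization, with the pooled test, without the trend and with the block, where its adjusted p was 0.125 (limma); leaving out 1 liver gave 0 to 1 members called. Related genes called numbered 4, against 7 without normalization, 8 with a minimum mean of 1 RPKM and 2 with the block, where Nr1d1 and Rxra had adjusted p of 0.0514 and 0.116 (limma), and 1 to 5 without 1 liver. The log2 difference of Apoe lay between -0.039 and 0.0090 without 1 liver, above 0 without control animal 3 (0.0090) or control animal 6 (0.0066). The ratio of Mttp to Apob, -0.29, had an exact p of 0.0938 with the block, and ranged from -0.33 to -0.17 without 1 liver. The correlation of Apoa4 with Apoa5, 0.58, was 0.47 after quantile normalization and 0.55 on shares, neither past the threshold. Other causes were not tested. The ratios and correlations with Apoa1 or Apoc3 were not run. Animals of equal number share only a number: correlations of their deviations lay between -0.17 and 0.06, and 0 of 12 animals correlated best with their own number. Apoa4 rests on 33 to 131 reads per liver, fewer than any other member's main row.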
